A study of Homo sapiens with 17 samples.

Results

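This comparison sets the libraries of cells given plasmids labelled GOLGA8N directly against those of cells given plasmids labelled LAPTM4B. Its members are 6 of the 17 libraries in the series, taken by plasmid label: GOLGA8N 1, GOLGA8N 2 and 23-GOLGA8N in 1 arm, and LAPTM4B 1, LAPTM4B 2 and 22-LAPTM4B in the other. All 6 came from K562, a human chronic myeloid leukaemia line with erythroid features, electroporated with CRISPR plasmids meant to switch on the named gene. Both arms then received an antisense oligonucleotide, a short synthetic nucleic acid that binds a matching RNA, and were harvested on day 6. No arm here is untreated, so the comparison holds electroporation, plasmid and oligonucleotide in common and differs by label. Neither the oligonucleotide nor any guide is named in the labels, and the meaning of the prefixes 22 and 23 and of the titles 1 and 2 is not stated. Nothing says that each library came from its own culture; the p-values therefore reflect the spread among these libraries alone, and that spread may be technical.

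GOLGA8 genes encode golgins, coiled-coil proteins of the Golgi apparatus, and lie in many near-identical copies on chromosome 15. LAPTM4B encodes a membrane protein of late endosomes and lysosomes, the compartments in which most oligonucleotide taken up by a cell is held. Golgins tether transport vesicles, and retrieval complexes such as retromer and GARP carry cargo from endosomes back to the Golgi. The series title links GOLGA8 to uptake and activity of antisense oligonucleotides, and the direct comparison asks how RNA levels differ between the arm labelled for a Golgi gene and the arm labelled for a lysosomal one.

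CRISPR activation is aimed at the sequence just upstream of a gene's start, and for GOLGA8N this sequence is shared by other copies. The 250 bases before the GOLGA8N start are shown because they are the part of the genome the plasmid label points to (RefSeq, GRCh38.p14, chr15:32593206-32593455, plus strand, 5′ to 3′). Capitals mark bases that differ in at least 1 of 8 GOLGA8 copies with at least 95% identity over their aligned part.
GOLGA8N: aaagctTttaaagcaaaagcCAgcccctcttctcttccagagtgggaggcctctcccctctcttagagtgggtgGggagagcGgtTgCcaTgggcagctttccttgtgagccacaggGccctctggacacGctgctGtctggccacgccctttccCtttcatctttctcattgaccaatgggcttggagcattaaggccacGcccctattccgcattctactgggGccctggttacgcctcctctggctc
The copy upstream of GOLGA8O was identical over all 248 aligned bases. Bases that a copy holds and GOLGA8N lacks were neither counted here nor marked by capitals, so the copies may differ further. GOLGA8R differed at 1 of 248, GOLGA8H at 4, GOLGA8K at 5, and GOLGA8J, GOLGA8M and GOLGA8T at 6. For GOLGA8Q 177 of 178 aligned bases were identical. Of the 231 stretches of 20 bases in the GOLGA8N sequence, the length of a usual Cas9 guide, between 124 and 213 also occurred in the window of each of these 8 copies. Outside the family, 55 of the 231 occurred in windows of 18 genes, among them GOLGA6 and GOLGA2 genes. Which of these stretches the plasmids carried is not analysed here.

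The arms differed in depth. The GOLGA8N libraries held 2740766, 2710290 and 2252097 estimated reads and the LAPTM4B libraries 3602883, 3620995 and 3581985, so the arms did not overlap (exact two-sided permutation test, p = 0.1, the smallest that 3 against 3 libraries can give). A count of 3 reads corresponded to between 0.859 and 1.38 CPM, the unit of level used here (reads of a gene relative to all reads of that library in genes). Among the other 11 libraries, GFP was far shallower, at 569057 estimated reads, and there 3 reads corresponded to 5.45 CPM. The lowest values given below for those 11 may come from it. Reads on ribosomal protein genes made up 24.7% ± 0.967 (SD, n = 3) of the GOLGA8N arm and 24.9% ± 0.617 (SD, n = 3) of the LAPTM4B arm. Of 11 K562 identity markers, 10 were at 10 CPM or more in all 6 libraries, including the globin gene HBG2 at 2822 to 4777 CPM. The remaining marker, BCR, was at 0.46 to 7.82 CPM. Summed, the 18 markers of other blood cells were at 100 to 183 CPM (GOLGA8N arm) and 97.1 to 122 CPM (LAPTM4B arm). Of these markers, 6 had fewer than 3 reads over the 6 libraries, and 1, CD3D, was above 10 CPM in all 6, at 45.8 to 119 CPM. Of 20 fibroblast and epithelial markers, 8 had fewer than 3 reads and 2 were at 10 CPM or more in all 6 libraries. Summed, these 20 were at 97.1 to 139 CPM (GOLGA8N arm) and 74.5 to 114 CPM (LAPTM4B arm). Of 14 megakaryocytic markers, 6 likewise had fewer than 3 reads, among them PF4 and PPBP, and 2 were at 10 CPM or more in all 6 libraries. Their sum was 352 to 421 CPM in the GOLGA8N arm and 340 to 410 CPM in the LAPTM4B arm. The part that depth and these markers play in the results was not tested, except that with all 6 libraries thinned to the depth of the shallowest the same 2 genes were called as below. In bulk samples, fewer cells expressing a gene and less RNA per cell cannot be told apart.

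The genes named by the labels came first. GOLGA8N (ENSG00000232653, GRCh38, chromosome 15, 32593456 to 32607310) was assigned 0.318 CPM in 23-GOLGA8N and essentially none in the other 5 libraries, below the floor of 3 reads, so it could not be tested. LAPTM4B (ENSG00000104341) was at 213, 275 and 156 CPM in the GOLGA8N arm and 179, 222 and 166 CPM in the LAPTM4B arm. In the other 11 libraries of the series it ran from 160 through a median of 234 to 306.5 CPM, and all 3 values of the LAPTM4B arm lay below that median. The arms overlapped, with a log2 fold change (GOLGA8N minus LAPTM4B, here and throughout) of 0.18 ± 0.168 (SE), so LAPTM4B was not detectably higher in the libraries labelled for it; without GOLGA8N 2 the difference of the means turned to -4.39 CPM. MTDH, the tested gene within 100 kb of LAPTM4B, stood at a log2 fold change of -0.07 ± 0.203. LAPTM4A and LAPTM5, the other members of the LAPTM family, had log2 fold changes of 0.03 ± 0.156 and -0.09 ± 0.538.

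Of 10518 genes tested with edgeR's quasi-likelihood test, with the prefix as a term, 2 were called at a Benjamini-Hochberg adjusted p under 0.05. Both were higher in the GOLGA8N arm: AC091057.3, a long noncoding RNA whose sequence copies the end of a GOLGA8 transcript, and PAEP, which encodes the secreted lipocalin glycodelin. They make up 0.019% of the genes tested, and 0% were called lower. Without adjustment, 371 genes had p under 0.05, 195 higher (1.85%) and 176 lower (1.67%). Arms did not overlap for 424 genes higher (4.03%) and 450 lower (4.28%). All 3 pairs of libraries, matched by title number and prefix, pointed the same way for 1241 genes higher (11.8%) and 1407 lower (13.4%).

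AC091057.3 (ENSG00000269930) is annotated by GENCODE 29 as a long intergenic noncoding RNA at GRCh38 chromosome 15, 30616958 to 30617749, plus strand, 2397 bases past the end of GOLGA8H. RefSeq draws GOLGA8H from 30604028 to 30617752 on the same strand, which takes in AC091057.3. Its level was 76.3, 50.1 and 17.1 CPM across the GOLGA8N libraries (in the order 1, 2, prefixed, as for all values that follow) and 0.144, 0.417 and 0.270 CPM across the LAPTM4B libraries. The arms stood far apart, and the prefixed GOLGA8N library was the lowest of its arm. In the other 11 libraries of the series the level ran from 0 through a median of 0.498 to 2.01 CPM. Pooled over libraries, 371 reads against 3 gave a ratio of 173 (exact 95% interval 58.9 to 844, counting error only). The fitted log2 fold change was 7.64 ± 0.66 (edgeR, adjusted p = 3.9e-05), a value that depends on the prior count because the LAPTM4B arm lies at the floor.

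The 792-base AC091057.3 transcript aligned to the GOLGA8N transcript over 785 base pairs, of which 775 were identical, with 9 bases in gaps. It aligned to GOLGA8EP at 718 and to GOLGA8F at 716 identical bases, and to GOLGA8B and GOLGA8A over shorter stretches. The 30 bases at chr15:30617003-30617032 (GENCODE 29, GRCh38, plus strand) are shown because no ungapped 30-base stretch of the alignment held more differences from GOLGA8N, marked by capitals.
AC091057.3: gtaggtatttgtcatatatttaagaaaaAG
With at most 2 differences in such a stretch, the assignment of reads to AC091057.3 in place of GOLGA8N, GOLGA8H or another copy is uncertain. A transcript outside the annotation, described in the closing section, was listed with the same estimated reads as AC091057.3 in all 6 libraries.

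No gene that GENCODE 29 names as a GOLGA8 member was called. GENCODE 29 ends GOLGA8H before the stretch that RefSeq adds to it, so the lack of reads on GOLGA8H does not show that it was silent. Of 21 family members, 14 had fewer than 3 reads over the 6 libraries and 2 passed the filter on low counts. GOLGA8A was at 33.6, 46.7 and 43.4 CPM against 21.6, 32.8 and 53.1 CPM, and GOLGA8B at 35.4, 20.9 and 20.5 CPM against 28.6, 27.3 and 40.9 CPM. Both overlapped between the arms, with log2 fold changes of 0.29 ± 0.306 and -0.29 ± 0.352; they are near-identical to each other, so the division of reads between them is uncertain. Without either prefixed library GOLGA8B turned to 0.05. The other 19 members together reached 12.9, 1.07 and 8.55 CPM in the GOLGA8N arm and 4.61, 0 and 1.87 CPM in the LAPTM4B arm. GOLGA8IP, a transcribed pseudogene, held 10.4, 0.573 and 2.92 CPM of this and 0 in all 3 LAPTM4B libraries. The summed family level was 74.4 ± 6.84 CPM (SD, n = 3) against 70.3 ± 22.3 CPM (SD, n = 3), with an exact two-sided permutation p of 0.9; the difference changed sign in the deposited TPM (-0.668) and without LAPTM4B 1 or LAPTM4B 2. With AC091057.3 included it was 158.3, 119 and 89.6 CPM against 55.0, 60.5 and 96.1 CPM, where 22-LAPTM4B lies above 23-GOLGA8N (exact permutation p = 0.2).

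**Figure D1:**
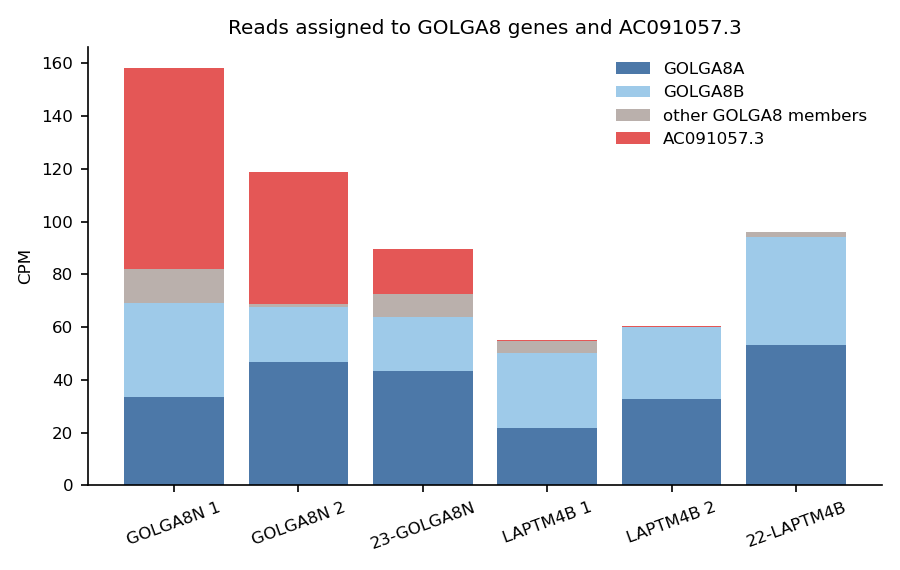
CPM assigned to GOLGA8A, GOLGA8B, the other GOLGA8 members and AC091057.3 in each of the 6 libraries, stacked from 0. AC091057.3 adds 76.3, 50.1 and 17.1 CPM in the GOLGA8N libraries and at most 0.417 CPM in the LAPTM4B libraries, while the GOLGA8A and GOLGA8B parts overlap between the arms.

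Genes beside the GOLGA8 copies were looked at next. Of the 5 genes tested within 100 kb of GOLGA8N or a close copy, AC091057.3 was the only one whose arms did not overlap. AC127502.2, AC091057.1, WHAMMP2 and PDCD6IPP2 overlapped between the arms, and the median log2 fold change of the 5 was 0.15.

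PAEP (ENSG00000122133, chromosome 9, 135561756 to 135566955, plus strand) encodes glycodelin, known from the endometrium and also made by megakaryocytic cells. It was at 53.3, 76.4 and 22.1 CPM in the GOLGA8N arm and 14.4, 9.16 and 4.34 CPM in the LAPTM4B arm. The lowest GOLGA8N library, the prefixed one, was above the highest LAPTM4B library, and each prefixed library was the lowest of its own arm. The log2 fold change was 2.44 ± 0.351 (edgeR, adjusted p = 0.0181), higher in 3 of 3 pairs by 1.82, 2.93 and 2.11 in log2(CPM + 1). The other 11 libraries ran from 0.991 through a median of 7.34 to 19.2 CPM, a range that holds all 3 LAPTM4B values and none of the GOLGA8N values. The call was lost without GOLGA8N 2 (adjusted p = 0.641), without LAPTM4B 2 (0.268) and without either prefixed library (0.183 and 0.0945), and also when the prefix term was dropped (0.644). It was lost as well in the unprefixed libraries alone (0.121, and 0.101 with the replicate block) and in the fits with 9 libraries (0.125) and all 17 (1). The log2 fold change stayed between 2.22 and 2.66 over all 23 alternatives. Reads on PAEP were spread by the quantifier over several transcripts in different ways in each library, and the gene sum is used here.

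The sequence before the PAEP start is shown because PAEP was the protein-coding gene called (RefSeq, GRCh38.p14, chr9:135561506-135561755, plus strand). Capitals mark the letters TGANTCA, a motif of AP-1 factors, searched on both strands.
PAEP: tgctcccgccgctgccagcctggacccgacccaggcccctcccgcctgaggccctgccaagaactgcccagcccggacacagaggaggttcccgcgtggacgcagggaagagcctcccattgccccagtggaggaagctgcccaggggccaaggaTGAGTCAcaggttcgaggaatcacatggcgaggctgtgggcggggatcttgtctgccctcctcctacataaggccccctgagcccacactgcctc
Of 35116 promoter windows of this length in the table, 6.57% held the motif; the windows of TIMP1 and CD44 did not. A match is a description of letters and not a site. Near matches were not counted, such as TGAGTAA in the TIMP1 window. The lack of a match is thus no sign that a site is lacking.

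TIMP1, CD44 and the sialidase NEU3 were also higher in all 3 GOLGA8N libraries than in any LAPTM4B library, but did not pass the adjusted threshold. TIMP1 (chromosome X, 47582313 to 47586789) encodes a secreted inhibitor of metalloproteinases, and was at 867, 916 and 524 CPM against 352, 338 and 465 CPM. The other 11 libraries ran from 204 to 601 CPM, a range that holds 23-GOLGA8N and the LAPTM4B values but not GOLGA8N 1 or GOLGA8N 2. The pairs titled 1 and 2 differed by 1.30 and 1.44 in log2(CPM + 1) and the prefixed pair by 0.17, with a fitted log2 fold change of 0.99 ± 0.222 (edgeR, adjusted p = 0.999). TIMP1's arm difference depended on the prefix at an unadjusted p of 0.0004 (adjusted p = 0.458). In the unprefixed libraries alone it was called (edgeR, log2 fold change 1.40 ± 0.154, adjusted p = 0.00642). On all 6 libraries it was also called by edgeR with no filter on low counts (adjusted p = 1.7e-07), by DESeq2 with no filter on low counts (0.00383), and by limma-voom with the same filter (0.0318), so the call turned on the filter, the tool and the prefixed pair.

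CD44 (chromosome 11, 35138870 to 35232402), the hyaluronan receptor, was at 45.7, 58.1 and 15.2 CPM against 6.33, 12.3 and 8.68 CPM. Its log2 fold change was 1.98 ± 0.438 (edgeR, adjusted p = 0.742), and the other 11 libraries reached 32.5 CPM, above 23-GOLGA8N. NEU3 (chromosome 11, 74988134 to 75018893), which removes sialic acid from gangliosides at the cell surface, was at 38.5, 53.9 and 32.2 CPM against 12.6, 16.9 and 18.8 CPM. The other 11 libraries ran from 19 to 49.2 CPM; all 3 LAPTM4B values lay below that range and GOLGA8N 2 above it. The log2 fold change of NEU3 was 1.37 ± 0.345 (edgeR, adjusted p = 0.999). STC1, which encodes the secreted hormone stanniocalcin, was at 63.5, 54.6 and 0.92 CPM against 13.2, 9.73 and 5.50 CPM. The unprefixed GOLGA8N libraries were the highest and the prefixed one the lowest of all 6, and the log2 fold change was 1.48 ± 0.747 (edgeR, adjusted p = 0.999).

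**Figure D2:**
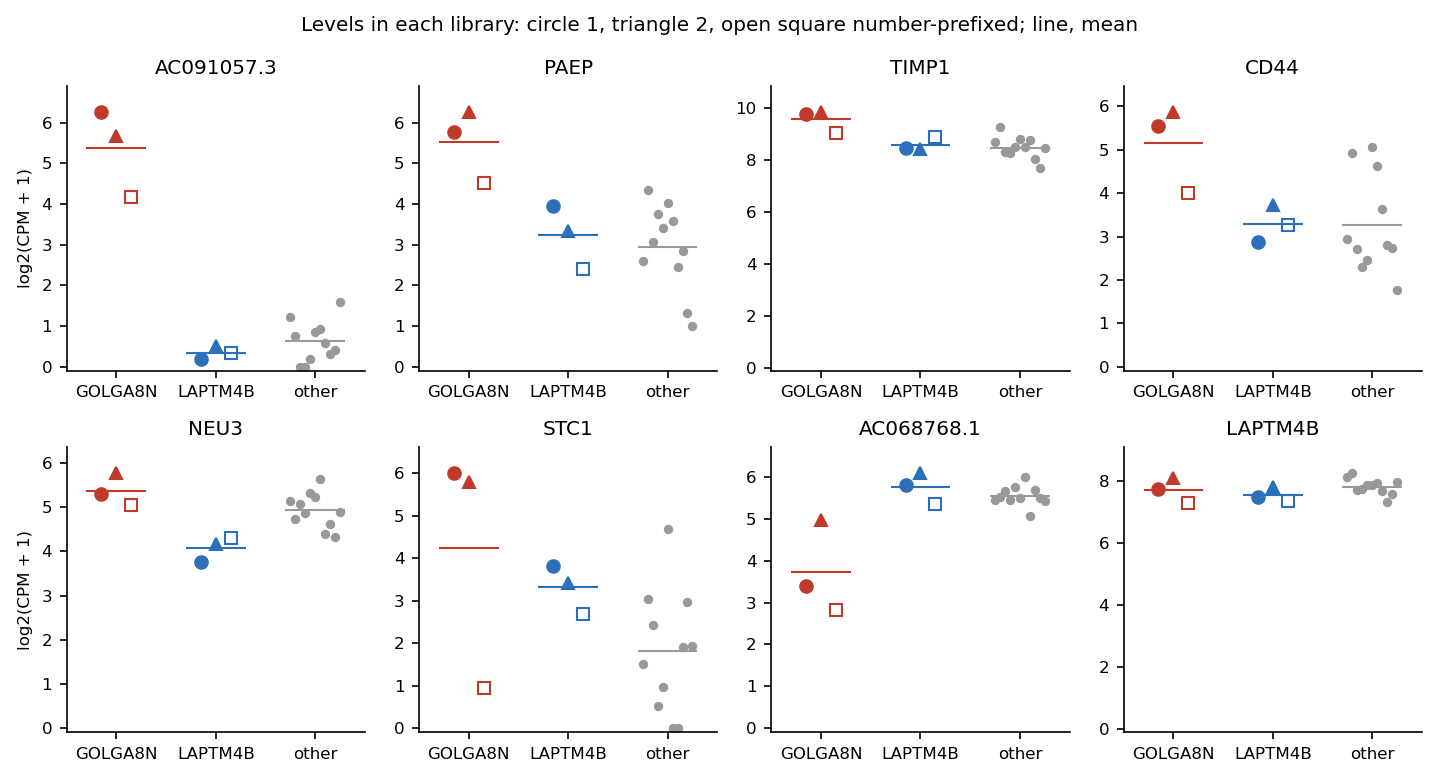
Level of 8 genes, as log2(CPM + 1), in each GOLGA8N library (red), LAPTM4B library (blue) and the other 11 libraries (grey), with the number-prefixed libraries as open squares and lines at the mean of the plotted values. For AC091057.3 and PAEP every red point lies above every blue and grey point; for STC1 the open red square lies below all blue points.

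The 20 genes with the lowest p were chosen by this same contrast, so their directions are a description. Of them 12 were higher and 8 lower in the GOLGA8N arm; 16 had arms that did not overlap, 11 higher and 5 lower, and the other 18 beside AC091057.3 and PAEP had edgeR adjusted p from 0.622 up. SNRPFP1, a processed pseudogene of a splicing factor gene, was at 35.2, 23.6 and 32 CPM against 9.06, 7.92 and 5.82 CPM, and its reads may be divided with its parent gene. S100A16, a calcium-binding protein, was at 18.5, 20.2 and 5.52 CPM against 2.01, 2.58 and 1.45 CPM. SEMA7A, a membrane-anchored semaphorin, was at 40.8, 43.5 and 36.8 CPM against 19, 7.73 and 17.6 CPM. These genes were higher by fitted log2 fold changes of 2.01 ± 0.414, 2.74 ± 0.680 and 1.47 ± 0.381. The other 11 libraries ran from 0 to 47 CPM for SNRPFP1 and from 0 to 47.7 CPM for SEMA7A, ranges that hold all 6 values of each gene. For S100A16 they reached 6.22 CPM, above 23-GOLGA8N. CDK2AP1, a regulator of CDK2, CHTF18, which helps load the replication clamp, KRI1 and TAX1BP3 had log2 fold changes of 1.43, 1.22, 1.45 and 1.56. The value of CDK2AP1 is uncertain, since it overlaps AC068768.1 on the same strand.

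In the other direction, AC068768.1 (ENSG00000235423, an antisense RNA at chromosome 12, 123252030 to 123261483) was at 9.56, 30.2 and 6.05 CPM in the GOLGA8N arm and 55.2, 67.3 and 39.8 CPM in the LAPTM4B arm. The other 11 libraries ran from 32.7 to 63.3 CPM; all 3 GOLGA8N values lay below that range and LAPTM4B 2 above it. Its log2 fold change was -1.91 ± 0.404 (edgeR, adjusted p = 0.697), and it was called only in the fit of all 17 libraries (adjusted p = 0.0471) and in the fit with no filter on low counts (4.3e-05). AC068768.1 overlaps CDK2AP1, which had the opposite direction, over 513 bases on the same strand, so the division of reads between them is uncertain. Summed after their values were seen, both genes together were at 71.8, 88.2 and 40.9 CPM against 69.3, 103 and 50.3 CPM, and the arms overlapped (exact two-sided permutation p = 0.8). No source used here states whether counting used the strand, so reads from the gene on the opposite strand cannot be told apart either. AC079801.1, a long intergenic noncoding RNA, was at 141, 137 and 144 CPM against 204, 228 and 222 CPM, with differences of -0.54, -0.73 and -0.62 in the pairs (log2 fold change -0.62 ± 0.154). PPP5C, a protein phosphatase, was at 170, 175 and 240 CPM against 299, 278 and 278 CPM, and RNF166, a ubiquitin ligase, at 21.5, 30.2 and 43.7 CPM against 51.5, 59.5 and 69.1 CPM. The other 11 libraries ran from 108 to 267 CPM for AC079801.1 and from 150 to 337 CPM for PPP5C, ranges that hold all 6 values of each gene. For RNF166 they ran from 38.7 to 85.8 CPM, with GOLGA8N 1 and GOLGA8N 2 below. RPL9P9, a copy of a ribosomal protein gene, was without reads in the 3 GOLGA8N libraries and stood at 16.5, 3.38 and 6.43 CPM in the LAPTM4B arm, at least 21.7-fold lower against a floor of 3 reads over the arm. It shares reads with RPL9, and the lowest of the other 11 libraries, which may be the shallow GFP library, was also at 0. CBWD1, which has near-identical copies, PLPPR3, and AC020978.7, which overlaps NFATC3 on the same strand, were lower with arms that overlapped.

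**Figure D3:**
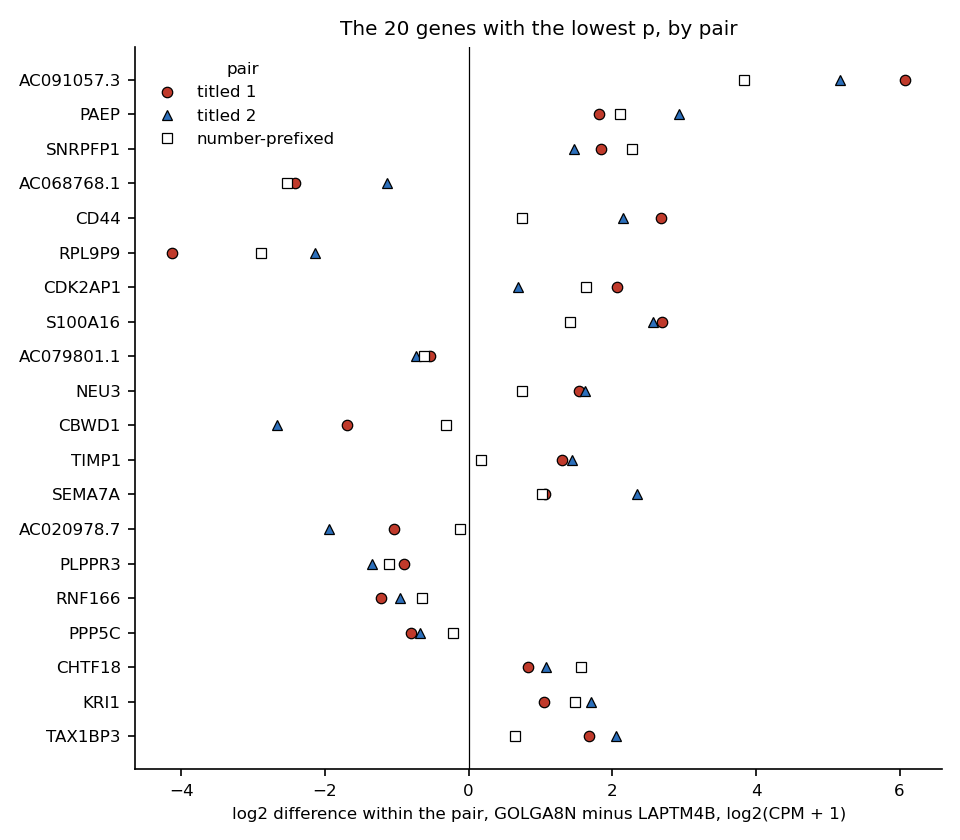
Difference within each pair of libraries, GOLGA8N minus LAPTM4B in log2(CPM + 1), for the 20 genes with the lowest p, the lowest at the top. All 3 pairs share a sign for all 20 genes, and the number-prefixed pair lies nearest 0 for TIMP1, CBWD1 and AC020978.7, among others.

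The question the labels raise is whether Golgi, endosomal and lysosomal genes differed between the arms, and none of them was called. The values below are read against the 49.5% of all genes tested with a log2 fold change above 0, their median of -0.0055 and the shares of non-overlapping arms given above. Of 21 other golgins tested, 12 were higher and 9 lower, with a median of 0.07; only GOLGB1, the giant golgin giantin, had arms apart, at 8.69, 3.82 and 8.28 CPM against 9.49, 14.9 and 23.1 CPM (log2 fold change -1.11 ± 0.538). Of 35 genes of vesicle coats, 22 were higher and 13 lower (median 0.085). COPG2, a COPI subunit, was at 125, 127 and 147 CPM against 98.1, 103 and 117 CPM, and SEC24C, a COPII cargo adaptor, at 56.3, 52.3 and 60.2 CPM against 31.3, 45.5 and 48.6 CPM. ARF5, a small GTPase of coat assembly, was at 0.928, 0 and 2.28 CPM against 4.31, 7.88 and 14.4 CPM, levels near the floor of 3 reads.

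Among 28 genes of retrieval from endosomes to the Golgi, 15 were higher and 13 lower (median 0.036), and arms did not overlap for 2 higher and 5 lower. The 2 higher were VPS51, also a subunit of GARP, and STX6, with log2 fold changes of 0.50 ± 0.322 and 1.20 ± 0.759. The 5 lower were the retromer subunit VPS26A, the sorting nexin SNX2, the GARP tethering subunits VPS53 and VPS54, and AP1B1 of the AP-1 adaptor. GARP subunits thus lay in both directions. VPS26A was at 33.2, 30.3 and 28.1 CPM against 49.2, 45.8 and 36.4 CPM, and AP1B1 at 95.6, 71.4 and 82.8 CPM against 132, 99.9 and 115 CPM. Their log2 fold changes were -0.50 ± 0.274 and -0.46 ± 0.205; AP1B1 had an unadjusted p of 0.041 and the other 4 were above 0.05.

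Of 29 genes of endocytosis, 14 were higher and 15 lower (median -0.0058). Of 42 genes of endosomes and ESCRT, 21 were higher and 21 lower; RAB5C, a GTPase of early endosomes, was at 279, 272 and 199 CPM against 388, 392 and 220 CPM (log2 fold change -0.36 ± 0.142). Of 54 lysosomal genes, 25 were higher and 29 lower, with a median of -0.019 and arms apart for 1 higher and 2 lower. Of 30 partners of LAPTM4B and genes of mTORC1, which LAPTM4B is known to regulate by its effect on amino acid transport, 16 were higher and 14 lower, none with arms apart. These lists lay around the median of all genes.

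Of 35 genes for proteins known to bind antisense oligonucleotides in cells, 15 were higher and 20 lower (median -0.02). RPA1, a single-strand DNA-binding protein, was at 49.1, 29 and 42.8 CPM against 27.9, 23.2 and 15.6 CPM, and ILF2 at 157, 195 and 148 CPM against 215, 220 and 217 CPM. Neither was called (log2 fold changes 0.90 ± 0.336 and -0.37 ± 0.16). In the sialidase and ganglioside list, 4 were higher and 4 lower: beside NEU3, UGCG, which makes glucosylceramide, was at 20.8, 35.5 and 4.6 CPM against 2.3, 11.2 and 4.05 CPM, and ST3GAL2, a sialyltransferase, at 58, 66.7 and 87.5 CPM against 103, 95 and 104 CPM. The arms of ST3GAL2 did not overlap, with its GOLGA8N values lower, while those of UGCG did.

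The list with the most one-sided direction was that of AP-1 and immediate early genes, which respond within minutes to growth signals and stress. Of 18 tested, 17 had a log2 fold change above 0, with a median of 0.26, but none was called and 1, KLF10, had arms apart. EGR1, a zinc-finger factor, was at 99.4, 137 and 91.5 CPM against 44, 59.5 and 104 CPM, and JUN, an AP-1 subunit, at 105, 80.6 and 206 CPM against 72.8, 53.2 and 243 CPM. In both the unprefixed pairs were higher in the GOLGA8N arm and the prefixed pair was lower. The median differences of the list within pairs were 0.10 for libraries titled 1, 0.51 for those titled 2 and -0.033 for the prefixed pair, and 1 of 18 genes was higher in all 3 pairs, against 11.8% of all genes. Of 30 genes of annexins, S100 proteins and the actin cytoskeleton, 23 were higher (median 0.14); S100A10 was at 31.7, 29.8 and 47.4 CPM against 17, 17.5 and 28.1 CPM. Among 20 adhesion genes 13 were higher, and CD58, the ligand of CD2, was at 18.5, 40.5 and 41.4 CPM against 16.1, 10 and 15.3 CPM. Of 40 erythroid genes 25 were higher (median 0.098), none of them called, and SLC25A37, a mitochondrial iron carrier, was at 208, 206 and 320 CPM against 159, 154 and 269 CPM, its values following the prefix as well as the arm. Of 81 ribosomal protein genes 38 were higher and 43 lower, and RPS23 was at 2840, 2374 and 2546 CPM against 3251, 3275 and 2846 CPM.

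**Figure D4:**
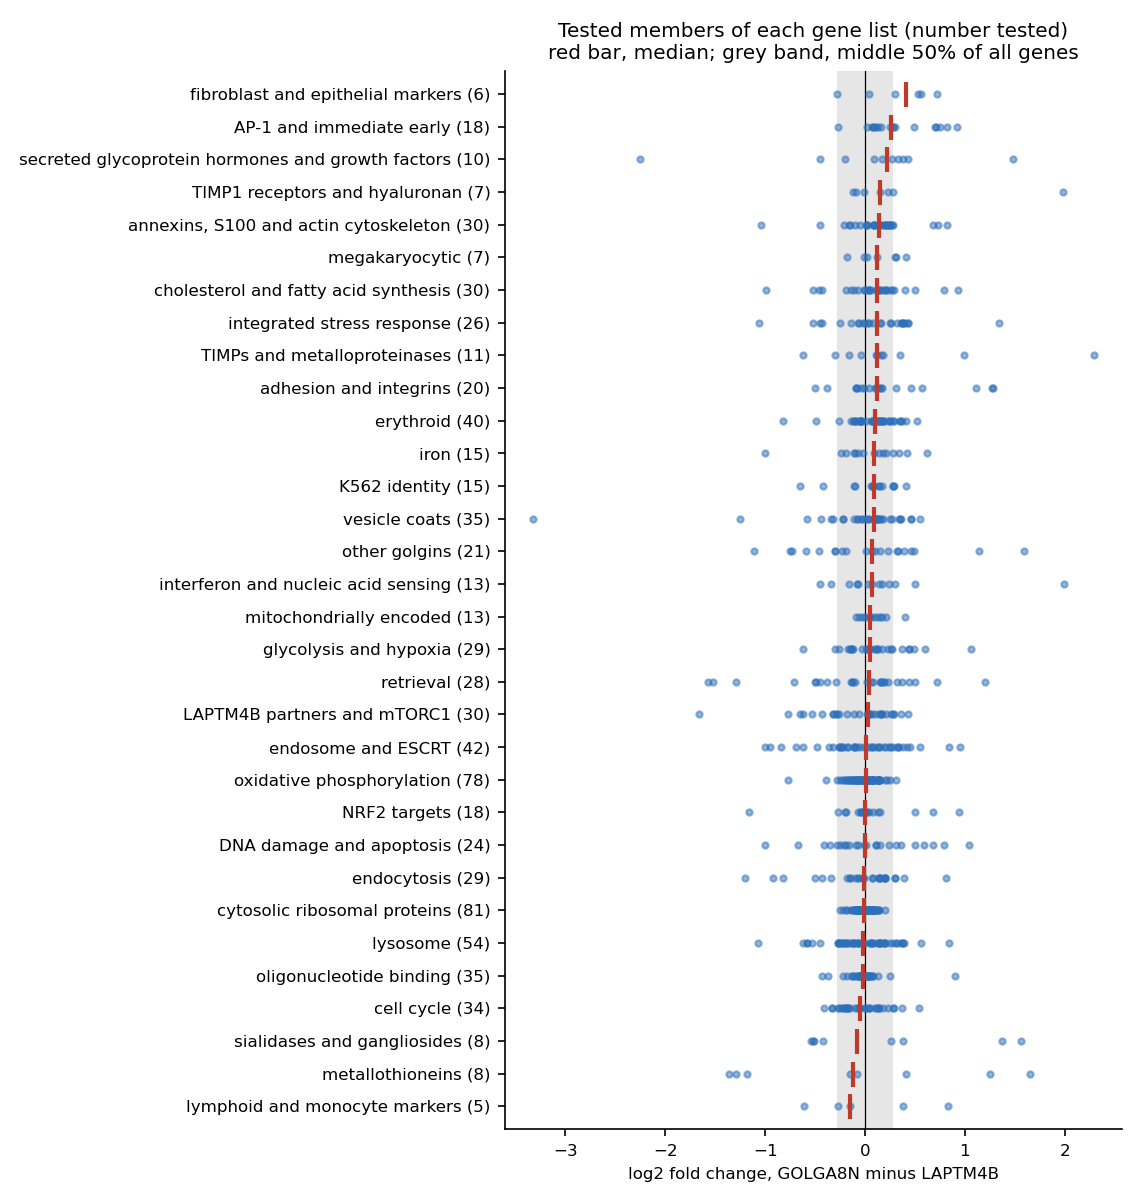
Fitted log2 fold change, GOLGA8N minus LAPTM4B, of each tested member of the gene lists with at least 5 tested members, with the list's median as a red bar and the middle 50% of all genes tested, -0.27 to 0.26, as a grey band. All list medians but those of the fibroblast and epithelial markers and, at the band's edge, the AP-1 and immediate early genes lie within the band.

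Each arm had 1 number-prefixed library, so the arm difference could be read with and without the prefix, but with it only as 1 library against 1. The test of whether the arm difference depended on the prefix had 2 residual degrees of freedom. A lack of calls in it thus does not show that the pairs behaved alike. No gene's arm difference depended on the prefix at an adjusted p under 0.05 by edgeR (0%) or limma-voom, and 453 of 10518 genes (4.31%) had an unadjusted p under 0.05 by edgeR. Across the 10518 genes, which are not independent replicates, the differences of the pairs titled 1 and 2 had a Pearson r of 0.0608. The prefixed pair had an r of -0.051 with pair 1 and -0.00386 with pair 2. These 3 pairs share no library. AC091057.3 lay far out in every pair, at 6.08, 5.17 and 3.84 in log2(CPM + 1), PAEP, SNRPFP1 and S100A16 were above 1.4 in all 3, and STC1 changed sign at 2.18, 2.37 and -1.76.

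**Figure D5:**
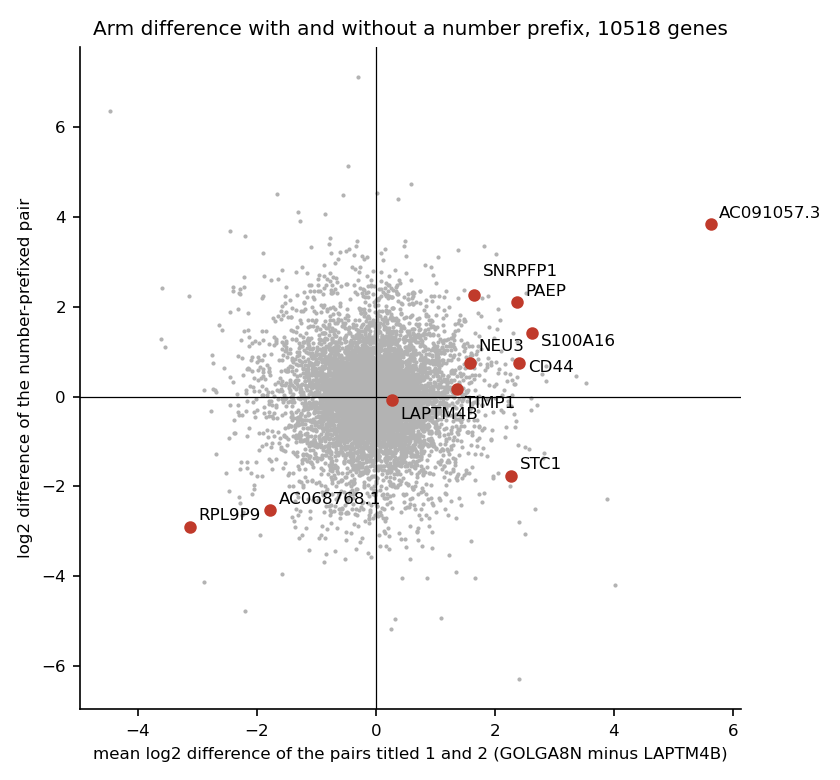
Each gene tested, by the mean difference of the pairs titled 1 and 2 (x axis) and the difference of the number-prefixed pair (y axis), both GOLGA8N minus LAPTM4B in log2(CPM + 1). The cloud of 10518 genes has no slope to the eye, AC091057.3 stands alone at the upper right, and STC1 lies at a positive x and a negative y.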

How the data were processed

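RNA was measured by 3′ tag sequencing with oligo-dT primers carrying 12 bp molecular identifiers. Per the file headers, the deposited tables give estimated counts and TPM per transcript in Salmon's columns. STAR and Salmon (0.7.2 for each, which leaves STAR's version in doubt), featureCounts, UMI-tools and GRCh38 are listed in the submitters' processing notes. No source used here says whether identifiers were collapsed. The deposited estimated counts were added up by GENCODE 29 gene (205336 of 228297 transcripts matched; 3.41% to 3.54% of reads in the 6 libraries did not and were set aside), rounded, and tested with edgeR 4.0.16 in R 4.3.3 (filterByExpr, TMM, robust quasi-likelihood fit, arm and prefix as terms, 3 residual degrees of freedom), with Benjamini-Hochberg adjustment. The SE is the log2 fold change divided by the square root of F. The deposited TPM served as an alternative for summed levels.

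Libraries were matched in 3 pairs by title number and prefix. Deviations from the arm means correlated at 0.118, 0.131 and 0.133 within the pairs and at -0.141 to 0.0169 between other numbers. By the rule used (all above 0.1) the libraries were read as pairs. Deviations within an arm balance each other, so these correlations cannot show that the numbers pair the libraries. The labels do not state it.

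The members and the 36 gene lists were chosen with earlier results of these data known. Genes named were the targets and their families, all called genes, the 20 lowest p, 6 genes known from earlier results, and up to 3 members of each list with the lowest p; list members with arms apart and neighbours within 100 kb were added after their values were seen, as were sums over overlapping genes of the same strand. The fit was tested on simulated counts. Alternatives were DESeq2 1.42.0, voom of limma 3.58.1, other scalings, filters, terms and library sets, and leaving out each library. Sequences were compared with Biopython 1.88.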

Additional observations from a re-analysis of the deposited data

Results flagged for a closer look

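Transcripts listed in the deposited files but absent from GENCODE 29 have no gene name here and stayed out of the comparison. When the 756 of them that passed the filter were tested beside the genes, 3 were called by edgeR, all higher in the GOLGA8N arm. ENST00000611771.1 had a mean of 68.4 CPM in the GOLGA8N arm (136, 54.3 and 15 CPM) and 0.377 CPM in the LAPTM4B arm, and at most 0.851 CPM in the other 11 libraries (log2 fold change 7.43 ± 0.613, adjusted p = 0.00021). ENST00000632353.1 had a mean of 46.2 CPM (73.7, 48.4 and 16.6 CPM) against 0.267 CPM, at most 1.94 CPM elsewhere, and read counts equal in each GOLGA8N library to those of AC091057.3. ENST00000621621.4 had a mean of 19.5 CPM (22.1, 17.7 and 18.6 CPM) against 0.306 CPM (adjusted p = 0.0193), but reached 39.5 CPM in another library of the series. Their sequences are not analysed here, so the genes they belong to are not named.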

How the results depend on the processing

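In 23 alternatives, of which thinning the libraries to 1 depth was chosen after seeing the data, 2 genes were called in most, but not always the same 2. TIMP1 took the place of PAEP in the unprefixed libraries alone and without either prefixed library. In the fit of all 17 libraries AC068768.1 took its place, and limma-voom called PAEP and TIMP1. The replicate block of 3 pairs called 2, both shared with the unblocked fit, and changed no call of a named gene. The count was 19 with no filter on low counts, 5 with unmatched transcripts kept, and 1 with no prefix term, with 9 libraries, and with GOLGA8 genes and AC091057.3 summed. Leaving out 1 library gave 1 (without GOLGA8N 2 or without LAPTM4B 2) to 4 (without GOLGA8N 1). AC091057.3 was called in 21 of the 22 alternatives that could hold it, the exception being limma-voom (adjusted p = 0.826), PAEP in 14 of 23 and TIMP1 in 7 of 23. The count of genes whose arm difference depended on the prefix, 0 in the main fit, stayed 0 by limma-voom and under the stricter filter. Genes that differed by the prefix itself were not counted.

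Of 1119 values of 49 named genes under the alternatives, 10 changed sign, all of genes not called. LAPTM5 turned to 0.035 by limma-voom and 0.0037 with the replicate block, and ran from -0.40 to 0.45 as each library was left out. GOLGA8B turned to 0.047 in the unprefixed libraries without pairing and 0.0025 with the replicate block, and ran from -0.67 to 0.051. LAPTM4A ran from -0.035 to 0.050 and MTDH from -0.17 to 0.016. Among library values, the GOLGA8 family difference was -0.668 in deposited TPM and ran from -3.63 to 16.9 CPM as each library was left out. GOLGA8A and GOLGA8B together ran from -10.2 to 11.7 CPM, LAPTM4B from -4.39 to 54.8 CPM, the ribosomal share from -0.72 to 0.245 percentage points and the mitochondrial share from -0.186 to 1.35. Their causes were not tested. With 3 libraries an arm, an exact permutation p cannot go below 0.1, and levels under about 1 CPM rest on fewer than 3 reads.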
